A study of Arabidopsis thaliana with 18 samples.

Results

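The regions described here are 445 peaks of trimethylated histone H3 lysine 4 (H3K4me3) that lay away from every gene of the study's expression table, in wild-type (WT) seedlings of Arabidopsis thaliana. They were taken from the authors' WT H3K4me3 peak list, which holds 15724 peaks on the 5 nuclear chromosomes. They were chosen by position: a peak was kept where it shared no base with any locus of the authors' RNA table widened by 500 bp on both sides. The distance to listed loci was thus used for the choice and is given as a description only. Of 510 peaks that met this condition, the 65 in 1 interval of chromosome 2 near the centromere were left out, and the other 15214 nuclear peaks touched a widened locus. The word listed refers here to the 19858 genes of the RNA table, each of which reached at least 0.501 FPKM in one genotype. A listed gene is therefore an expressed gene, and an unlisted gene is one with no value in that table.

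The plants were whole seedlings of ecotype C24 at 10 days of age, WT or carrying the pold2 mutation, without treatment. POLD2 is a subunit of DNA polymerase delta, which copies the genome. Each histone mark was profiled by chromatin immunoprecipitation in 1 WT library, and RNA in 3 libraries per genotype, of which the authors deposited 1 pooled value per genotype. The authors' deposited table gives POLD2 itself a level of 7.21 FPKM for WT and 2.83 for the mutant. Transcripts typical of shoot and root were both present in WT, the authors' deposited table having RBCS1A at 16839, LHCB2.1 at 1572, IRT1 at 77.3, PHT1;1 at 39.7 and COBL9 at 1.44 FPKM. With 1 library per mark and no value per RNA library, no peak or gene has an SD, and no test across samples was possible. Read depth is unknown.

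H3K4me3 is placed by SET-domain methyltransferases around the start of genes that RNA polymerase II transcribes, and its level tends to follow transcription. H3K27me3 is the mark of Polycomb repression, which in plants covers whole genes that act in other tissues or stages. H3K9me2 marks silent transposons together with DNA methylation, and is densest around the centromeres. Primary transcripts of plant microRNA (miRNA) genes are made by RNA polymerase II and processed in the nucleus, so that little of the long precursor is seen as stable RNA. A promoter with H3K4me3 can thus stand where an expression table has no gene.

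The 445 peaks were weaker and shorter than those at listed genes. The authors' score, which is their own value per peak and ranks peaks within the list, had a median of 295 with quartiles of 120 and 717. The 15214 peaks at listed genes had a median score of 1570, with quartiles of 775 and 2485. The lowest 25% of the whole nuclear list, below 718, took in 75.1% of the peaks away from listed genes, and the top 25%, from 2448 upwards, 1.12% (5 peaks). Scores under 100 were found in 19.6% of them and in 3.39% of the peaks at listed genes. A score of 3100 or more was reached by 3 of them and by 14.8% of the peaks at listed genes. Many peaks share the value 3100, so they cannot be ranked at the top of the list.

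Peak length moved with score. The median length was 1045 bp away from listed genes, with quartiles of 897 and 1200 bp, and 1341 bp at listed genes, with quartiles of 1180 and 1613 bp. Spearman's rho of length with score was 0.55 across the 445 peaks and 0.72 across the 15214, where all peaks share 1 library. The difference in length was smaller within a range of score, and at scores from 100 to 300 the medians were 974 and 1024 bp. At scores of 1000 and more they were 1334 and 1439 bp.

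**Figure D1:**
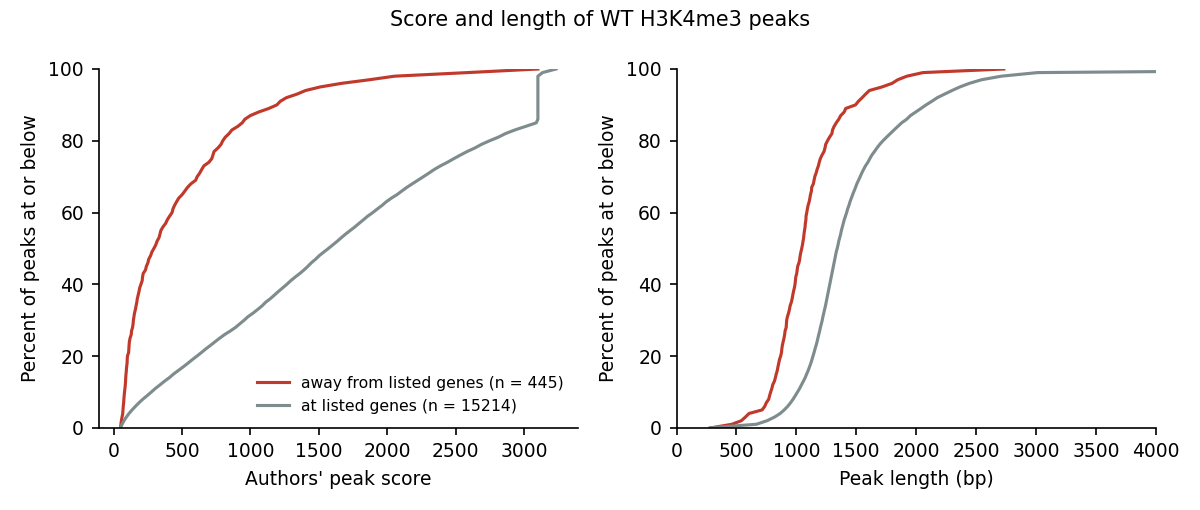
Cumulative percent of WT H3K4me3 peaks by the authors' score (left) and by length in bp (right) for the 445 peaks away from listed genes and the 15214 peaks at listed genes. The curves of the 445 peaks lie to the left, with medians of 295 against 1570 for score and 1045 against 1341 bp for length.

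The 3 peaks with the highest score, all at 3100, stood in different surroundings. The first lay on chromosome 4 from 10578222 to 10579799 (TAIR10), 1578 bp long, in a stretch of 4398 bp between the listed genes AT4G19390 and AT4G19400. In RefSeq the genes between those neighbours are MIR168a, whose miRNA targets the AGO1 transcript, and a long noncoding RNA (lncRNA) gene, AT4G06880. The second lay on chromosome 1 from 28888792 to 28890604, between TLP1 (AT1G76900) and AT1G76920, where RefSeq has 6 unlisted genes including MIR4228. The third lay on chromosome 1 from 6194604 to 6196400, between PAPS1 (AT1G17980), a poly(A) polymerase gene, and AT1G18030. A peak of score 2809 stood in the same stretch from 6199568 to 6201417.

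The remaining peaks among the 10 with the highest scores ranged from 2047 to 2731. That of score 2731 lay on chromosome 1 from 1462760 to 1464143, in a stretch with 6 unlisted genes of protein-coding and lncRNA classes. That of score 2402 lay on chromosome 2 from 17891266 to 17892853, between PIF4 (AT2G43010), a transcription factor gene of light and temperature signalling, and AT2G43030. The 1 unlisted gene in that stretch is PAO2 (AT2G43020), for a polyamine oxidase. The peak of score 2373, on chromosome 2 from 1901710 to 1902862, lay 5673 bp from the nearest listed locus. Next came a peak of score 2236 beside MIR166a, which is described with the miRNA genes. The last 2, both on chromosome 5, scored 2098 (10333619 to 10334877) and 2047 (16725607 to 16726906).

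Long peaks were not the highest ones. The longest measured 2732 bp, on chromosome 5 from 10374614 to 10377345, at a score of 1298. The next measured 2395 bp (chromosome 3, 21133209 to 21135603), 2300 bp (chromosome 3, 2923485 to 2925784), 2162 bp (chromosome 2, 1666543 to 1668704) and 2083 bp (chromosome 1, 12385058 to 12387140). H3K27me3 covered 2198 bp of the 2300 bp peak and 759 bp of the 2162 bp peak, and no base of the other 3.

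The distance from a peak to the nearest listed locus had a median of 2132 bp, with quartiles of 1079 and 5055 bp, and reached 240 kb. The 3 peaks just inside the 500 bp margin lay at 501, 505 and 520 bp, with scores of 113, 216 and 864. The 3 just outside it lay at 492, 491 and 487 bp, with scores of 58.9, 631 and 821. Scores on the 2 sides of the margin thus covered like ranges. Score had little relation to distance among the 445 peaks (Spearman's rho of -0.06). The median score was 420 for the 100 peaks within 1 kb, 278 for 107 peaks from 1 to 2 kb, 279 for 126 peaks from 2 to 5 kb, 228 for 81 peaks from 5 to 20 kb and 377 for the 31 peaks beyond 20 kb. The highest score among the 31 most distant peaks was 864.

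The 5 peaks farthest from a listed locus were all on chromosomes 2 and 3. Of these, 4 lay in 1 stretch of 528 kb on chromosome 2 between AT2G09990 and AT2G10940, at 240, 235, 213 and 168 kb from AT2G10940. Their scores were 135, 172, 140 and 539, so that 3 of the 4 were weak. RefSeq has 145 unlisted genes in that stretch, of which 20 are protein-coding. The other, on chromosome 3 from 14602902 to 14603362, was 461 bp long, 119 kb from AT3G42630 and scored 67.7.

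**Figure D2:**
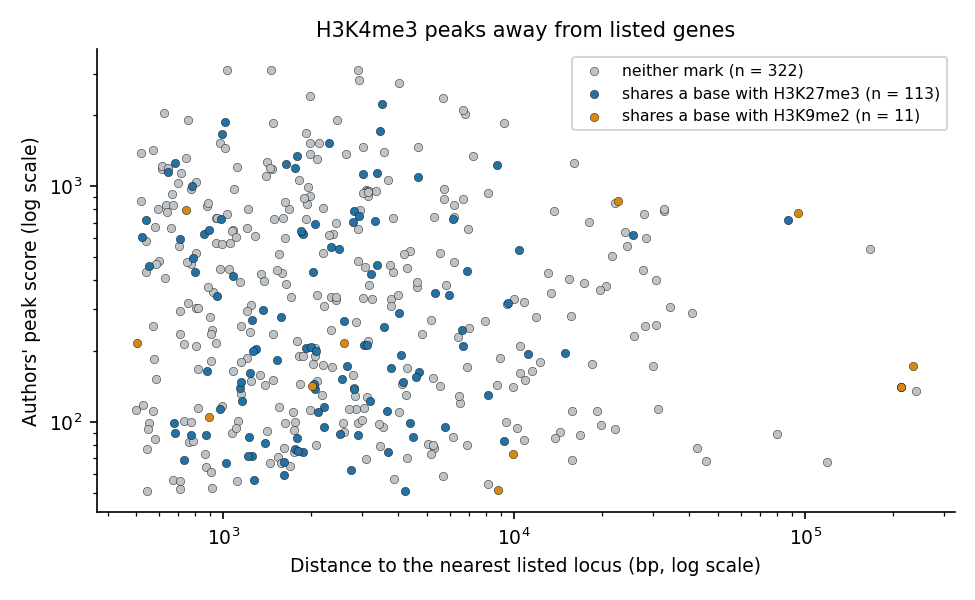
Authors' score (log scale) of the 445 H3K4me3 peaks against the distance in bp (log scale) to the nearest listed locus, with points coloured by whether the peak shares a base with a WT H3K27me3 peak, a WT H3K9me2 peak or neither. Distances run from 501 bp to 240 kb, and peaks with H3K27me3 are spread over the range of scores.

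The peaks were found on every chromosome in a similar proportion. They made up 3.14% of all nuclear H3K4me3 peaks on chromosome 1 (129 peaks), 2.42% on chromosome 2 (59), 2.72% on chromosome 3 (85), 2.85% on chromosome 4 (67) and 2.83% on chromosome 5 (105). Their place relative to heterochromatin was read from the WT H3K9me2 list, since no centromere positions were used. A window of 1 Mb was called H3K9me2-rich where H3K9me2 peaks covered at least 20% of it, which held for 22 of 121 windows. Those windows held 55 of the 445 peaks (12.4%, 95% Wilson interval 9.62 to 15.7) and 535 of the 15214 peaks at listed genes (3.52%). They also held 3.45% of the listed genes. The 445 peaks were fewer per Mb inside these windows than outside, at 2.50 against 4.02, but the peaks at listed genes fell off far more, at 24.3 against 151. Out of 100 H3K4me3 peaks of both kinds, 9.32 lay away from listed genes inside the H3K9me2-rich windows and 2.59 outside. Listed genes are few in these windows, and the rule keeps only peaks away from listed genes. The choice of peaks by itself thus raises their share there, and a relation to heterochromatin cannot be told apart from it. All Wilson intervals given here cover counting error only, and neighbouring peaks of 1 library are not independent.

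Overlap with H3K27me3 was more frequent away from listed genes than at them. Of the 445 peaks, 113 (25.4%, interval 21.6 to 29.6) shared at least 1 bp with a WT H3K27me3 peak, against 1197 of 15214 (7.87%, interval 7.45 to 8.31). The overlap was mostly broad, since H3K27me3 covered 50% or more of the length in 86 of the 113 and the whole length in 45. By bases, H3K27me3 covered 21.5% of the 445 peaks and 4.41% of the peaks at listed genes. Both marks were measured over whole seedlings, so marks of different cells and marks on 1 molecule cannot be told apart.

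Score differed between the 2 sets, so the shares were read within ranges of score. At scores under 100, 31.0% of the 87 peaks away from listed genes and 26.0% of the 515 at listed genes overlapped H3K27me3, and these intervals overlap. From 100 to 300 the shares were 29.2% of 137 and 18.2% of 1124. From 300 to 1000 they were 19.0% of 163 and 11% of 3150. At scores of 1000 and more they were 25.9% of 58 (interval 16.3 to 38.4) and 4.90% of 10425 (interval 4.50 to 5.33). At listed genes the share with H3K27me3 thus fell with score, and away from them it did not fall in step.

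**Figure D3:**
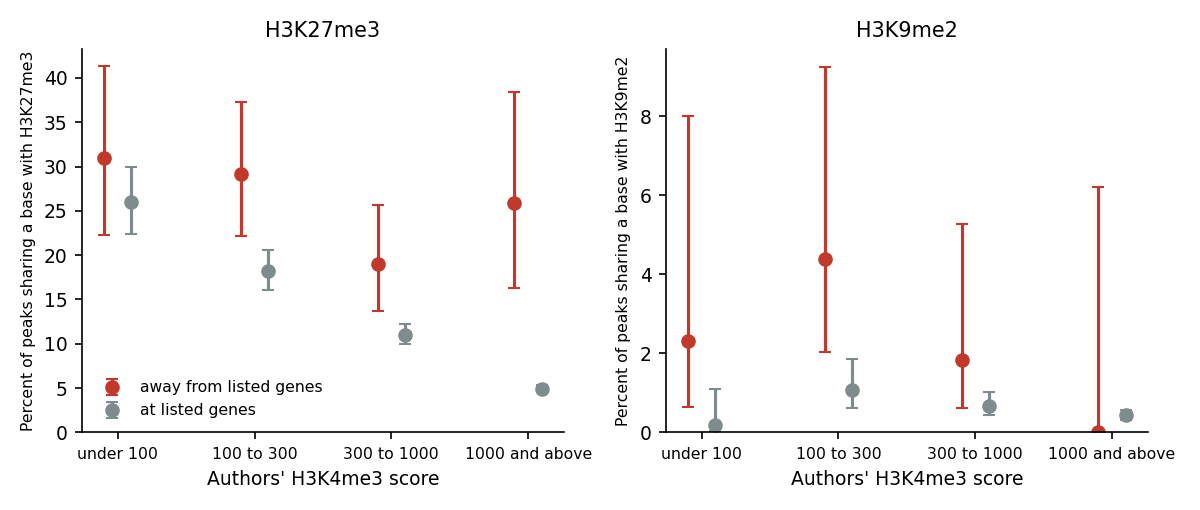
Percent of H3K4me3 peaks that share a base with a WT H3K27me3 peak (left) or a WT H3K9me2 peak (right), by range of the authors' H3K4me3 score, with 95% Wilson intervals as bars. For H3K27me3 at scores of 1000 and more the 2 sets stand at 25.9% and 4.90%, and for H3K9me2 every share lies under 5%.

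The peaks with H3K27me3 scored lower, with a median of 209 against 332 for the 322 peaks with neither mark, and were longer, with medians of 1122 and 1014 bp. Their distances to a listed locus had like medians, 2085 and 2156 bp, but upper quartiles of 3659 and 5646 bp. The share with H3K27me3 was 21.0% within 1 kb, 28.0% from 1 to 2 kb and 35.7% from 2 to 5 kb. It was 17.3% from 5 to 20 kb and 9.68% of the 31 peaks beyond 20 kb. The 5 strongest peaks with H3K27me3 all scored above 1519, the median of the whole list. That of score 1872 lay on chromosome 1 from 12711440 to 12713366, 1016 bp from MYB93 (AT1G34670), a transcription factor gene, with H3K27me3 over 936 bp. That of score 1712 lay on chromosome 4 from 591807 to 592933, 3465 bp from UMAMIT31 (AT4G01440), of a transporter family, with H3K27me3 over 861 bp. That of score 1658, on chromosome 3 from 7681929 to 7683440, had H3K27me3 over 182 bp only. The other 2 of the 5 strongest lay beside MIR166a and MIR156a.

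Overlap with H3K9me2 was rare. It was found in 11 of the 445 peaks (2.47%, interval 1.39 to 4.37) and in 79 of the 15214 at listed genes (0.519%, interval 0.417 to 0.647). H3K9me2 covered 0.626% of the bases of the 445 peaks. H3K9me2 covered 50% or more of the length in 2 of the 11. No peak with a score of 1000 or more overlapped H3K9me2 (0 of 58, which allows a share of up to 5.17%). Of the 11, 6 were on chromosome 4.

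The strongest peak with H3K9me2 scored 864, on chromosome 4 from 1996463 to 1997770, with 281 bp under H3K9me2 and 22665 bp from the nearest listed locus. It was followed by a peak of score 789 on chromosome 4 (2582545 to 2583663, 150 bp), 1 of score 768 on chromosome 3 (13989343 to 13990531, 60 bp), 1 of score 216.16 on chromosome 4 (11834296 to 11835086, 548 bp) and 1 of score 215.89 on chromosome 4 (15551858 to 15553820, 773 bp). The peak on chromosome 3 lay 94766 bp from the locus of ARP6 (AT3G33520), whose protein belongs to the SWR1 chromatin remodeller, within a stretch of 555 kb. A single peak, of score 140 in the 528 kb stretch of chromosome 2, touched both H3K27me3 (913 bp) and H3K9me2 (12 bp).

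Away from listed genes did not mean away from genes. RefSeq (assembly TAIR10.1) was used for the order of genes along the chromosomes, and the genes between the 2 listed neighbours of each peak were read from it. Only the order of genes was used, so whether such a gene lies under the peak was not determined. The order is that of the reference assembly, and whether the C24 plants share it was not tested. Of 443 peaks whose neighbours could be placed, 436 (98.4%) had at least 1 unlisted gene between them. The median number was 4, and the median width of the stretch between the listed loci was 10.5 kb. At least 1 protein-coding gene was among them for 389 peaks, an lncRNA gene for 199, a pseudogene for 144 and a miRNA gene for 57.

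Wide stretches hold more genes, so the stretches were compared at like widths. The 18405 stretches between neighbouring listed loci had a median width of 1.30 kb, and 383 of them held 1 or more of the 445 peaks. The narrowest that did was 1985 bp wide. Among stretches from 1985 to 5000 bp, 6 of 1815 without an unlisted gene held a peak (0.331%) and 67 of 2349 with one (2.85%, interval 2.25 to 3.61). Among stretches from 5000 to 10000 bp these were 1 of 350 (0.286%) and 134 of 1696 (7.90%, interval 6.71 to 9.28). The 2 classes differed little in median width, at 2850 and 3296 bp in the narrower band and 6241 and 6703 bp in the wider. A stretch with an unlisted gene thus held a peak more often than one without at either width.

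The shares by class of the unlisted genes are given for stretches that held the class, whatever else they held, and for stretches with that class only. Protein-coding genes were among the unlisted genes in 1567 of the narrower and 1332 of the wider stretches, of which 55 and 113 held a peak, and as the only class the shares were 2.75% of 1199 and 6.92% of 766. For lncRNA genes the shares were 2.90% of 689 and 11% of 527 with the class among them, and 1.24% of 404 and 3.33% of 150 with that class only. A miRNA gene was among the unlisted genes in 58 of the narrower and 66 of the wider stretches, of which 5 (8.62%, interval 3.74 to 18.6) and 13 (19.7%, interval 11.9 to 30.8) held a peak. With miRNA genes only, a peak was present in 0 of 25 of the narrower stretches (which allows up to 12%) and in 1 of 8 of the wider. Over all widths from 1985 bp, 1 of 33 stretches with miRNA genes only held a peak (3.03%, interval 0.537 to 15.3). The share was 7.27% for stretches with any unlisted gene, which that interval includes, and the median widths were 3365 and 5401 bp. Without a protein-coding gene, 19 of 87 stretches with a miRNA gene held a peak (21.8%, interval 14.5 to 31.6). Of all 1299 stretches with unlisted genes but no protein-coding one, 45 did (3.46%). Which class the higher shares go with was not tested.

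Other RNA classes were counted in the same way. Genes for small nucleolar RNAs (snoRNAs), which guide ribosomal RNA modification, were among the unlisted genes in 35 and 20 stretches of the 2 bands. Of these, 3 and 10 held a peak. With snoRNA genes only it was 0 of 7, all in the narrower band, which is too few to read. Without a protein-coding gene, 4 of 26 stretches of any width with a snoRNA gene held a peak (15.4%, interval 6.15 to 33.5). Genes that RefSeq classes as miscellaneous RNA were among the unlisted genes in 123 and 108 stretches. A peak was held by 6 and 21 of these (4.88% and 19.4%). Of 66 stretches of any width with that class only, 55 of them in the narrower band, 0 did (which allows up to 4.55%). For transfer RNA (tRNA) genes, which RNA polymerase III transcribes, the counts were 0 of 116 (which allows up to 2.59%) and 4 of 66, and beyond the 2 bands 6 of 30 from 10000 to 20000 bp and 3 of 12 above. Stretches with any unlisted gene stood at 13.6% from 10000 to 20000 bp and 20.2% above.

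**Figure D4:**
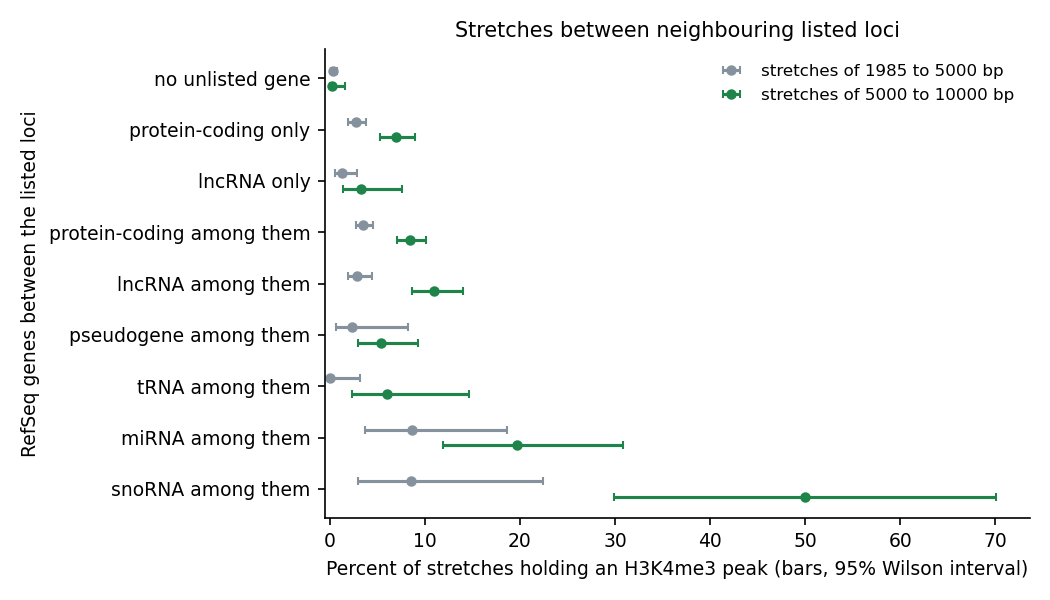
Percent of stretches between neighbouring listed loci that hold an H3K4me3 peak away from listed genes, by the classes of RefSeq genes in the stretch and for 2 bands of width, with 95% Wilson intervals as bars. Classes marked "among them" can overlap. Stretches with no unlisted gene stand below 1% in both bands, and of the classes drawn those with miRNA and snoRNA genes stand highest in the wider band, at 19.7% and 10 of 20.

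The miRNA genes beside these peaks included conserved families that control development. Of the 57 peaks, 17 lay in stretches with at most 3 unlisted genes, so that few other genes shared the stretch. Some of these stretches were still wide, such as that with MIR396b and MIR2937 at 32184 bp and that with MIR166a at 13780 bp. All but that with MIR172b held an unlisted gene of another class as well. The word beside means here in the same stretch. All 57 had a median score of 464 and these 17 a median of 703, against 295 for all 445. The 57 lay in 39 stretches, 10 of them between AT5G50460 and AT5G50720 and 5 between AT2G09990 and AT2G10940. They are thus not 57 separate places. The highest peak below those with MIR168a and MIR4228, both at 3100, stood beside MIR166a, at a score of 2236 (chromosome 2, 19175714 to 19177232). It lay between HB-7 (AT2G46680) and the auxin gene SAUR32 (AT2G46690), and H3K27me3 covered 1400 of its 1519 bp. The miR166 family restrains class III homeodomain-leucine zipper genes, which set the upper side of the leaf.

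Next came the peak beside MIR403 at 1908 (chromosome 2, 19414675 to 19416007) and that beside MIR159b at 1907 (chromosome 1, 6219895 to 6221446). The targets of miR403 include AGO2, and those of miR159 are GAMYB-type transcription factor genes. The peak in the stretch with MIR396b and MIR2937 scored 1860 (chromosome 5, 13611504 to 13612754). The miR396 family acts on growth-regulating factor genes. The peak beside MIR156a scored 1524 (chromosome 2, 10675624 to 10677214), with H3K27me3 over 1536 of 1591 bp, and miR156 holds plants in the juvenile phase by acting on SPL genes. The peak beside MIR161 scored 1102 (chromosome 1, 17825304 to 17826548). The 10 highest were completed by a peak of 934 with MIR8174 among 9 unlisted genes and 1 of 846 with MIR405b and MIR5015 among 35, where the link to a miRNA gene is loose.

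Below these, the peaks in stretches with at most 3 unlisted genes stood beside MIR172a (787), MIR172b (703), MIR164b (627), MIR779 (622), MIR159a (572), MIR162b (479), MIR160a (212), MIR171c (130), MIR319c (86.5) and MIR171b (52.6), with the authors' score of each in brackets. MIR172b was the 1 unlisted gene between its neighbours. Of the 17 peaks, 7 shared bases with H3K27me3, and they were those beside MIR156a, MIR160a, MIR164b, MIR166a, MIR172a, MIR172b and MIR319c. H3K27me3 covered all 1214 bp of the peak beside MIR172b, all 1400 bp of that beside MIR160a and all 1063 bp of that beside MIR319c. It covered 1346 of 1585 bp beside MIR164b and 856 of 1308 bp beside MIR172a. The peaks beside MIR168a, MIR403, MIR159a, MIR159b, MIR161, MIR162b, MIR171b, MIR171c, MIR396b and MIR779 had no base under H3K27me3. Score could differ between peaks beside members of 1 family, as with MIR159b and MIR159a at 1907 and 572. The peak in the stretch with MIR156b, which has 4 unlisted genes, scored 464 and had no H3K27me3, where that beside MIR156a scored 1524 and had it.

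Other small RNA genes were found beside fewer peaks. A snoRNA gene was among the unlisted genes for 24 peaks, a tRNA gene for 16 and a spliceosomal small nuclear RNA gene for 4. The highest with a snoRNA gene scored 2020 (chromosome 3, 8978947 to 8979953), then 1658, 1151, 845 and 789. The highest with a tRNA gene scored 1122, 976, 792, 691 and 429, and H3K27me3 covered all 1129 bp of that of 691 (chromosome 1, 29004195 to 29005323). Those with a small nuclear RNA gene scored 575, 346, 155 and 118. The single peak with an antisense RNA gene scored 725. Below the peak with MIR4228, those with a miscellaneous RNA gene scored up to 1421, 1217, 1134 and 1060, and those with a gene of the class ncRNA up to 970, 845, 797, 723 and 575. The 5 highest with an lncRNA gene are among the 10 highest of all. Classes are not exclusive, since protein-coding genes stood in most of these stretches as well.

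For 63 peaks RefSeq had exactly 1 unlisted gene between the listed neighbours, which allows a peak to be set beside a single name. That gene was protein-coding for 50, an lncRNA for 7, a pseudogene of either kind for 5 and a miRNA gene for 1. The 63 peaks had a median score of 268. Of the 50 with a protein-coding gene, 25 shared bases with H3K27me3, and 0 of the 7 with an lncRNA gene did, too few to bound that share usefully. Of these protein-coding genes, 21 have a symbol in RefSeq, and they are named next, a choice made after their values were seen.

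Of the peaks beside these 21 genes, 9 shared bases with H3K27me3 and 12 did not. The peak beside HAI2 (AT1G07430), a protein phosphatase gene of abscisic acid signalling, scored 1259 and had H3K27me3 over 1985 of 2024 bp. The peaks beside NCED2 (AT4G18350) and NCED5 (AT1G30100), whose enzymes cleave carotenoids on the way to abscisic acid, scored 1244 and 1224, with H3K27me3 over 1645 of 1765 bp and 1718 of 1840 bp. That beside the transcription factor gene ERF38 (AT2G35700) scored 1339, with 979 of 1222 bp covered. That beside IPT1 (AT1G68460), a cytokinin synthesis gene, scored 728, with 1306 of 1407 bp covered. The peaks beside AGL8 (AT5G60910), the MADS-box gene FRUITFULL, and OFP12 (AT1G05420) were weak, at 169 and 116, and H3K27me3 covered each of them whole, over 1055 and 966 bp. Those beside CRK8 (AT4G23160), a receptor-like kinase gene, and AGL81 (AT5G39750), a MADS-box gene, scored 541 and 457, with 444 of 1364 bp and 234 of 1184 bp covered.

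Without H3K27me3 stood PAO2 (2402), CIPK22 (AT2G38490), a kinase gene of calcium signalling, at 1685, and SEC3B (AT1G47560), an exocyst gene, at 1366. RAS1 (AT1G09950), a gene of salt and abscisic acid response, stood at 730 and PDLP1 (AT5G43980), for a protein of plasmodesmata, at 565. UNE9 (AT3G10560) stood at 244, CRK6 (AT4G23140) at 179 and BXL3 (AT5G09730) at 128. LBD11 (AT2G28500) stood at 120 and MMD1 (AT1G66170), a gene of male meiosis, at 89.5. EDA6 (AT3G23440) stood at 80.9 and ICME-LIKE2 (AT3G02410) at 56.1. These values are the authors' scores of the peak in the stretch with that gene.

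In 34 stretches, 2 or more of the 445 peaks stood between the same listed neighbours, and 6 stretches held 4 or more, with 39 peaks in all (8.76%). The spacing in 4 of these was looked at because the values stood out. Between AT5G50460 and AT5G50720 on chromosome 5, 10 peaks ran over 48.8 kb with scores of 702, 504, 639, 399, 802, 762, 557, 846, 405 and 785 from left to right. The second 5 followed the first 5 in order of place, each shifted by 33302 to 33422 bp. Scores of the matched peaks were closest for the fourth and ninth, at 399 and 405, and farthest apart for the third and eighth, at 639 and 846. RefSeq has 28 unlisted protein-coding genes there, among them 6 groups of genes with equal length, such as HSD4 and HSD7 at 1555 bp.

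The same pattern was seen on chromosome 1. Between AT1G58602 and AT1G59510, 7 peaks scored 372, 90.9, 232, 290, 77.3, 257 and 280, and each of the first 4 was followed by a peak 36252 to 36259 bp further on. The weak peaks of 90.9 and 77.3 were matched to each other by that shift. Between AT1G24764 and AT1G25220, 9 peaks alternated between a lower and a higher score, at 144, 475, 175, 377, 172, 442, 111, 352 and 157. The 5 lower ones ranged from 111 to 175 and the 4 higher from 352 to 475, without overlap, and steps between peaks of a kind were 14341 to 14418 bp but for 1 step of 22556 bp among the lower and 22547 bp among the higher. Between PAPS1 and AT1G18030, 4 peaks scored 279, 3100, 2809 and 182, a mirrored order with lengths of 1338, 1797, 1850 and 1366 bp. No H3K27me3 or H3K9me2 was found under any peak of these 4 stretches.

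Pairs of equal-length genes were then counted over all stretches at least 1985 bp wide with 2 or more unlisted protein-coding genes, a count made after these values were seen. Such a pair was present in 12 of 207 stretches with a peak (5.80%) and in 11 of 1392 without (0.790%). The 12 include the stretches described above that start at AT5G50460, AT1G58602 and AT1G24764, so the count is not independent of them. The stretches with a peak were wider, with medians of 13.7 and 8.80 kb, and held more unlisted protein-coding genes, with medians of 3.00 and 2.00, so the shares are not at like widths. How reads that match several copies were placed is not given in the sources used here. Whether such placement moves these scores or keeps genes out of the RNA table was not tested. Nor was it tested whether C24 has the gene copies and spacing of the reference assembly.

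The listed genes nearest to the peaks were somewhat lower in level than listed genes at large. The nearest loci held 439 listed genes, whose WT median in the authors' deposited table was 10.4 FPKM (95% interval over genes 8.58 to 11.8), with quartiles of 3.49 and 22.9. For all 19858 listed genes the authors' deposited table gave a WT median of 12.1 FPKM and quartiles of 4.35 and 30.2. An H3K4me3 peak of their own, within 500 bp, was present at 379 of the 439 (86.3%), as at 86.4% of all listed genes. H3K27me3 touched 18.5% of the nearest genes and 15.3% of all. H3K9me2 touched 2.73% (interval 1.57 to 4.72) of the nearest genes and 0.680% of all. The nearest genes beyond 2 kb carried H3K27me3 more often than those under 2 kb, at 27% of 222 and 9.21% of 228.

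The comparison of pold2 with WT asked whether expression changed at the genes beside these peaks. In the authors' deposited table, 60 of the 439 nearest genes had a q under 0.05 (13.7%, interval 10.8 to 17.2), while 12.4% of all listed genes did. Of the 60, the authors' deposited table has 33 higher in pold2 (7.52%, all listed genes 5.97%) and 27 lower (6.15%, all listed genes 6.47%). With q under 0.01 the authors' deposited table calls 28 of the 439 (6.38%) and 7.59% of all listed genes. These shares are near the background. The authors' deposited table gives a median log2 ratio of -0.00 for the nearest genes and -0.01 for all. Beside peaks with H3K27me3 the authors' deposited table calls 18 of 120 nearest genes (15%), and beside the others 44 of 324 (13.6%). A gene can be nearest to peaks of both kinds.

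**Figure D5:**
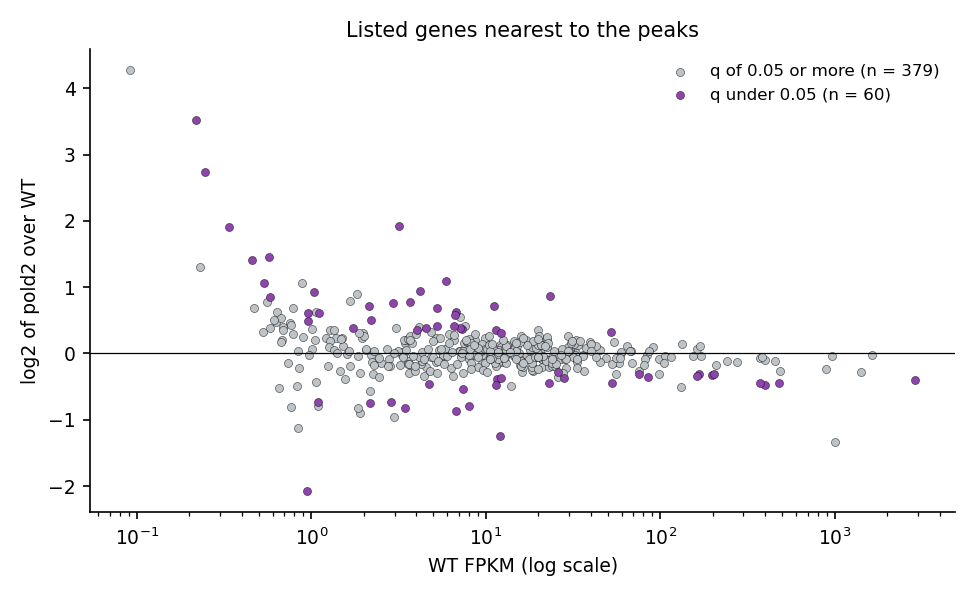
Log2 ratio of pold2 over WT against WT FPKM (log scale) for the 439 listed genes nearest to the 445 H3K4me3 peaks, from the authors' deposited table, with the 60 genes at the authors' q under 0.05 in colour. Most points lie near 0, and the 3 largest ratios belong to genes below 1 FPKM in WT.

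Called nearest genes are named where the mean of both genotypes was 1 FPKM or more. A gene low in 1 genotype passes that filter only through the other, so the order of the folds rests on it. SWEET10 (AT5G50790), a sugar transporter gene, passed it through its pold2 value. The authors' deposited table has it at 0.219 FPKM for WT and 2.51 for pold2, 11.5-fold higher (q = 0.00188). The low WT value makes that fold uncertain. The peak, of score 200 on chromosome 5 from 20660087 to 20661081, lay 2085 bp away between SWEET10 and SWEET13 (AT5G50800). It was among the 7 placed peaks with no unlisted gene between the neighbours, and H3K27me3 covered 135 of its 995 bp. SWEET10 itself carried H3K27me3 and no H3K4me3 peak within 500 bp in WT.

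The authors' deposited table has AT2G28490 at 3.18 FPKM for WT and 12.0 for pold2, 3.78-fold higher (q = 0.00103), and its peak of score 120 stood in the stretch with LBD11. AT5G39030, at 0.574 and 1.57 FPKM by the authors' deposited table (2.73-fold higher), lay beside a peak of score 1197 with H3K27me3 over 1247 of 1640 bp. AT4G22450.1, at 5.95 and 12.7 FPKM by the authors' deposited table (2.14-fold higher), lay 505 bp from the peak of score 216.16 with H3K9me2. By the authors' deposited table, AT5G39670, CRK5 (AT4G23130), CYP72A8 (AT3G14620), CYP71B24 (AT3G26230), AT5G38780 and AT1G76780 were 1.63-fold to 1.92-fold higher. CRK5 encodes a cysteine-rich receptor-like kinase, and the unlisted gene in the stretch beside it is CRK6 (AT4G23140), of the same family, with a peak of score 179.

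Among the falls, ACS4 (AT2G22810), for an enzyme of ethylene synthesis, was under the filter, at 0.946 FPKM for WT and 0.224 for pold2 by the authors' deposited table (4.23-fold lower, q = 0.00264), and is named after its value was seen. AT5G26220, for the glutathione-degrading enzyme GGCT2;1, had 12.1 FPKM for WT and 5.08 for pold2 by the authors' deposited table (2.38-fold lower, q = 0.00103) and lay 1233 bp from a peak of score 240. The authors' deposited table has AT4G18650 1.83-fold, AT3G04040 1.78-fold, AT3G43850 1.73-fold, AT3G10290 1.69-fold, AT2G12646 1.65-fold, AT4G01580 1.44-fold and AT3G58900 1.38-fold lower. AGL31 (AT5G65050), the floral repressor MAF2, had 11.5 FPKM for WT and 8.26 for pold2 by the authors' deposited table (1.39-fold lower, q = 0.0156). Its peak, of score 295 on chromosome 5 from 25980178 to 25981049, lay 1204 bp away, and the 1 unlisted gene in the stretch is the lncRNA gene AT5G09295. AT2G10940, at 400 and 288 FPKM by the authors' deposited table (1.39-fold lower), was the nearest gene to all 5 peaks of the 528 kb stretch.

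PIF4 and AT2G43030, on the 2 sides of the peak beside PAO2, both fell. PIF4 is a flanking gene outside the naming rule and was added after its value was seen. Of all 750 flanking genes the authors' deposited table calls 112 (14.9%, interval 12.6 to 17.7), and 12.4% of all listed genes. PAPS1 and AT1G18030, on the 2 sides of the peaks of score 3100 and 2809 on chromosome 1, were not called (authors' q = 0.990 and 0.890). The authors' deposited table has PIF4 at 59.1 FPKM for WT and 44.9 for pold2 (q = 0.00188), and AT2G43030 at 481 and 355 FPKM (q = 0.00103). PAO2 itself is unlisted, so the authors' deposited table gives no level for it.

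Genes that place or remove H3K4 methylation were looked at as a list of 21, of which 20 were listed. The authors' deposited table calls none of them higher in pold2 and 1 lower, with 2 at an unadjusted p under 0.05, where 12.4% of all listed genes are called in either direction. By the authors' deposited table the list's median log2 ratio was 0.01, and that of all listed genes -0.01. The lower one was ASHR3 (AT4G30860), a SET-domain gene, which the authors' deposited table has at 6.35 FPKM for WT and 4.70 for pold2 (q = 0.0129). The authors' deposited table has SDG2 (AT4G15180), the main writer of H3K4me3, at 23.9 FPKM for WT and 25 for pold2. The demethylase gene JMJ14 (AT4G20400) had 15.5 and 15.9 FPKM, ATX2 (AT1G05830) 14.1 and 14.6 FPKM and LDL3 (AT4G16310) 14.0 and 14.3 FPKM by the authors' deposited table.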

How the data were processed

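Tools named, without a role, per the submitters' processing notes were bcl2fastq, Bismark 0.7.4, Bowtie2 2.0.5, Bowtie 0.12.9, Cuffdiff 2.1.1, TopHat2 2.1.1 and SAMtools, with the TAIR10 build. RNA values are FPKM, 1 pooled value per genotype, per the file headers. The log2 ratio, p-value and q-value columns are those of the authors' deposited table. The score of each peak is the authors' value, and the deposited peak names begin with MACS. The sources used here do not give the caller's version or control.

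Peaks and loci were compared in Python 3.11.15 with pandas 2.3.3 and scipy 1.17.1, with starts counted from 1 in the text. A peak overlapped a mark at 1 shared base. Interval and neighbour steps were tested on simulated data. The order of genes came from RefSeq (TAIR10.1, 19801 of 19858 listed genes matched). Intervals are 95% Wilson intervals, and a count of 0 was bounded at 3 counts.

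The regions and lists were chosen with earlier results of these data known. Named were the peaks with the 10 highest scores, the 5 longest, the 5 highest with either mark, the 5 farthest, 3 on each side of the margin, up to 10 with a miRNA gene and up to 5 with another RNA class. Added after their values were seen were the other peaks with a miRNA gene among at most 3 unlisted genes, MIR156b, and the single unlisted genes with a symbol. The listed genes ACS4 and PIF4 were added in that way too. Nearest genes named were the 10 largest rises and falls among called genes averaging 1 FPKM or more. The p-values of the authors' comparison measure the spread between RNA libraries, which may be technical. Alternatives were other margins, overlaps, score and q thresholds, and peaks alone in their stretch. The pold2 ChIP, H3, input and bisulfite libraries were not analysed here.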

Additional observations from a re-analysis of the deposited data

Results flagged for a closer look

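The WT H3K4me3 list also holds 58 peaks on the mitochondrial genome, outside the comparisons, with scores from 51.4 to 2829 and a median of 267. They were singled out as peaks in data not otherwise used, and whether they reflect the mark was not tested.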

How the results depend on the processing

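Of 63 recomputed values over 10 results, 40 lay inside the 95% interval of the value reported or, for the count of peaks, within 1.5 times it. The other 23 lay outside. That tolerance is wide for the count, which was 591 with a margin of 0 bp, 345 with 1000 bp, 510 with the chromosome 2 interval kept and 349 for peaks alone in their stretch, and narrow for shares near 100%. The count of 445 became 238 with a margin of 2000 bp and 23 in the better-scoring 50% of the H3K4me3 list. In that list the median score was 1908, the median length 1395 bp, the H3K9me2 share 0% (0 of 23, which allows up to 13.0%), the median WT level of nearest genes 12.3 FPKM and the share with an unlisted gene between neighbours 100%. The H3K27me3 share there was 21.7%, against 4.27% at listed genes. The median distance was 1416 bp with a margin of 0 bp, 3026 bp with 1000 bp, 4534 bp with 2000 bp, 2759 bp from peak centres and 1859 bp for peaks alone in their stretch, a setting chosen after seeing the data. The share with an unlisted gene was 99.4% and 99.6% with margins of 1000 and 2000 bp, and 87.8% for protein-coding genes only. The share in H3K9me2-rich windows was 19.3% with a margin of 2000 bp, and 19.6% and 5.17% with windows at 10% and 40%. With 50% of the peak covered, 19.3% overlapped H3K27me3 and 0.449% H3K9me2. With the better-scoring 50% of the other mark these were 18.7% and 0.899%. At q under 0.01, 6.38% of nearest genes were called, against 7.59% of all. The cause of these differences was not tested, beyond the margins and thresholds that set them by construction. No paired analysis was possible because the RNA table gives 1 pooled value per genotype. For the same reason no library could be left out. Depth is unknown, and 1 library per mark limits every peak.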
